A study of Mus musculus with 18 samples.

Results

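Embryos lacking Dnmt3b were compared directly with embryos lacking Dnmt3a at embryonic day 8.5, when gastrulation has given way to the first organs. Of the 18 libraries of the series, 8 entered the comparison: those titled Dnmt3b KO 1, 2, 11 and 12 and those titled Dnmt3a KO 1, 2, 13 and 14, taken by their titles. Each library was made from a single dissociated mouse embryo on a 129S4/SvJae background with the 10x Genomics 3' v3 chemistry, which counts mRNA molecules as unique molecular identifiers (UMIs). The Dnmt3a KO embryos are labelled null for Dnmt3a and the Dnmt3b KO embryos null for Dnmt3b, both in every cell of the embryo, and the 7 wild-type (WT) libraries carry neither mutation. Litters were not given in the sources used here. The barcodes kept, those with at least 1500 mouse UMIs and at most 30% of UMIs from mitochondrial genes, numbered 74707 of 99080 in these 8 libraries, against 118602 of 162336 in the whole series.

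DNMT3A and DNMT3B are the enzymes that place new methyl groups on cytosines, mostly at CpG dinucleotides, and both act while the epiblast, the founder tissue of the embryo, gains its methylation around implantation. DNMT1 then copies the marks at each cell division. Among the best known genes that depend on methylated promoters for their silence are germline genes, which encode proteins of meiosis, of the piRNA pathway that restrains transposons in germ cells, and testis-specific copies of everyday enzymes. Embryos without Dnmt3b die before birth whereas those without Dnmt3a are born. Setting one knockout against the other asks which genes depend more on one enzyme than on the other.

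Several libraries stood apart. The libraries Dnmt3b KO 1 and 2 shared 12249 cell barcodes, 86.5% and 79.3% of their own, whereas no other pair among the 8 shared more than 85, so they were summed and counted as 1 embryo, leaving 3 Dnmt3b KO embryos against 4 Dnmt3a KO embryos. Dnmt3a KO 2 was the shallowest, with a median of 4169 UMIs per cell, and 38.6% of its cells were of the ExE endoderm class, the extraembryonic yolk sac layer, against 7.59% to 13.9% in the other embryos compared. Y-linked transcripts were present in all embryos compared except Dnmt3b KO 12, whose Xist was 503 UMIs per 1000000 UMIs of its library (CPM), so that 1 Dnmt3b KO embryo was female and the other 6 knockout embryos were male. Between the knockouts the 4 Y-linked genes had overlapping groups, with log2 fold changes from -0.73 to -0.57. Of the 7 WT embryos, only WT 2 was male, with Y-linked transcripts at 91.0 CPM. The other WT embryos held 0.14 CPM or less of these and 509 to 625 CPM of Xist. Total UMIs per library ran from 146628586 to 262283813. Tsix, the antisense partner of Xist, was 2.63 to 4.37 CPM in Dnmt3a KO and 4.45, 5.52 and 8.91 CPM in Dnmt3b KO, and neither was called. A combined human and mouse reference was used for 3 of the 8 libraries (Dnmt3a KO 1, Dnmt3a KO 13, Dnmt3b KO 11), with at most 0.00991% of UMIs on human genes.

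Dnmt3a itself did not follow the labels throughout. Its level was 8.71, 9.67, 7.59 and 11.9 CPM in Dnmt3a KO 1, 2, 13 and 14, and 32.5 CPM in Dnmt3b KO 1 and 2 summed. The library labelled Dnmt3b KO 11 held 15.1 CPM and the library labelled Dnmt3b KO 12 held 7.60 CPM, whereas the 7 WT embryos ran from 23.5 to 34.9 CPM around a median of 30.6. The library labelled Dnmt3b KO 12 therefore lay at the level of the Dnmt3a KO embryos and the library labelled Dnmt3b KO 11 lay between them and WT, so that the 2 groups overlapped. The fitted log2 fold change of Dnmt3a, Dnmt3b KO minus Dnmt3a KO, was 0.95 ± 0.37 (SE, n = 3 and 4; edgeR quasi-likelihood test, adjusted p = 0.704). The value rested on which Dnmt3b KO embryos were fitted, being 1.71 without the libraries labelled Dnmt3b KO 11 and 12, 0.31 without Dnmt3b KO 1 and 2, and 1.73 with a replicate block. The first of these removes embryos noted for their low Dnmt3a and leaves 1 Dnmt3b KO embryo, so no p-value is given for that fit. Counts of calls from it take the lone embryo to vary like the others. What the libraries labelled Dnmt3b KO 11 and 12 carried at Dnmt3a was not tested. The numbers of calls, the called genes and the pooled germline list are also given without them, whereas the separate germline lists and the list values by class were not computed without them.

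Dnmt3b mRNA did not separate the groups. It stood at 57.7, 63.4 and 68.5 CPM in the Dnmt3b KO embryos and at 46.1 to 65.7 CPM in the Dnmt3a KO embryos, with a log2 fold change of 0.18 (edgeR, adjusted p = 0.963). The count of 3' ends therefore does not check the Dnmt3b label, since transcript was still read in all 3 embryos at WT levels of 36.0 to 87.3 CPM. Dnmt1, the maintenance enzyme, had a log2 fold change of 0.06, and Uhrf1, which guides DNMT1 to newly copied DNA, had 0.01, with overlapping groups for both. Dnmt3l, the catalytically inactive partner of the new-methylation enzymes, was 0.342, 0.793 and 0.876 CPM in Dnmt3b KO against 0.163 to 0.243 CPM in Dnmt3a KO, a log2 fold change of 1.76 that did not pass the test (edgeR, adjusted p = 0.174).

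**Figure D1:**
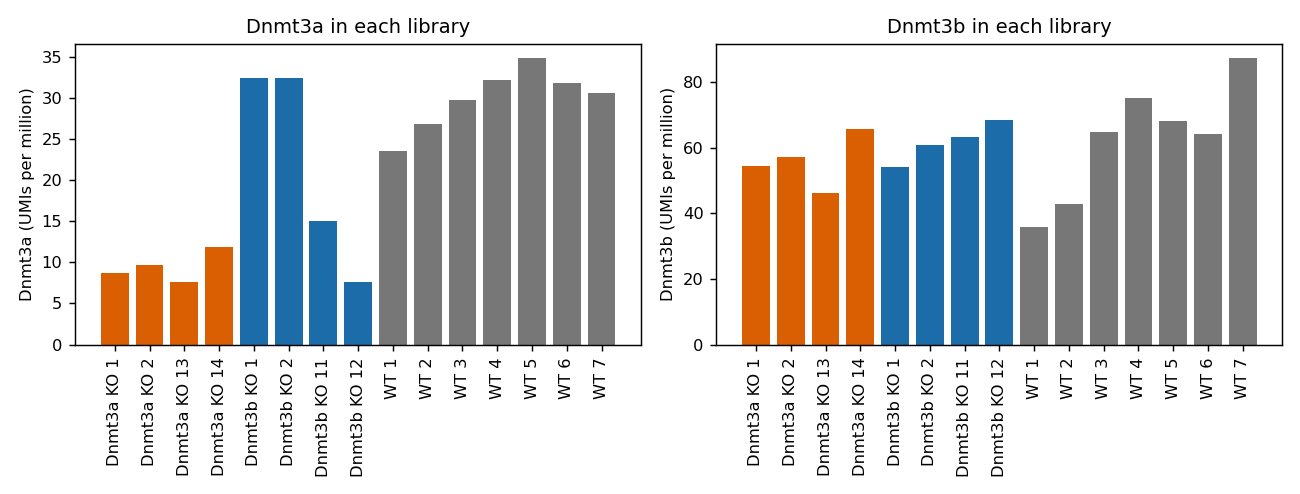
Level of Dnmt3a (left) and Dnmt3b (right) in CPM in each library, one bar per library, for Dnmt3a KO (orange), Dnmt3b KO (blue) and WT (grey). Dnmt3a in the libraries labelled Dnmt3b KO 11 and 12, at 15.1 and 7.60 CPM, lay below every WT library, and Dnmt3b was read in every library.

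Most genes called between the knockouts over whole embryos were higher in Dnmt3b KO, and their number depended on the fit. Of 18366 genes tested on UMIs summed per embryo, 4 were called higher in Dnmt3b KO (0.0218%) and 1 lower (0.00544%), where a call required edgeR's quasi-likelihood test to give an adjusted p under 0.01 together with a log2 change of 1 or more, up or down. The 4 were Sycp1, Reg2, Rhox4e and Gm4779, and the lower gene was Gm14226. No gene was called higher when any 1 Dnmt3a KO embryo or the library labelled Dnmt3b KO 11 was left out, or with the reference as a covariate, although Gm14226 was still called lower in each of these fits. Without the libraries labelled Dnmt3b KO 11 and 12, or with a replicate block, no gene was called in either direction. In the fit with a replicate block, Dnmt3b KO 1 and 2 entered as separate libraries. Only the numbers 1 and 2 occur in both groups, so its contrast rested on those libraries and could call little. Other fits called more, with 91 higher and 4 lower by DESeq2, and 38 higher and 2 lower by edgeR with all 4 groups of the series in the fit. With an adjusted p under 0.05 and any fold, a rule chosen after the values were seen, 21 genes were higher (0.114%) and 2 lower. Of these 23 genes, 8 were members of the germline lists described below, which held 125 of the 18366 genes tested, and 9 lay on the X chromosome, which held 645 (3.51%). In sums over whole embryos, fewer cells of a type and less RNA per cell cannot be told apart. The p-values measure the spread between 3 and 4 embryos.

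The largest called increase was in Sycp1, which encodes the transverse filament of the synaptonemal complex, the scaffold that holds paired chromosomes together in meiosis (chr3:102818499-102936100, minus strand, mm10). Sycp1 was 0.298, 0.399, 0.544 and 0.492 CPM in Dnmt3a KO 1, 2, 13 and 14. It was 6.55 CPM in Dnmt3b KO 1 and 2 summed, 9.59 in the library labelled Dnmt3b KO 11 and 21.2 in the library labelled Dnmt3b KO 12. Every Dnmt3b KO embryo thus lay more than the whole Dnmt3a KO range above it, and the log2 fold change was 4.82 ± 0.40 (SE; edgeR, adjusted p = 0.00309). The WT embryos held 0.108 to 0.513 CPM, a range that overlapped that of Dnmt3a KO. Without the libraries labelled Dnmt3b KO 11 and 12, which left 1 Dnmt3b KO embryo, the log2 fold change was 3.84.

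Rhox4e and Gm4779 lie on the X chromosome. Rhox4e, a homeobox gene of the reproductive Rhox cluster (chrX:37557412-37562283), was 0.543, 1.06, 0.915 and 1.32 CPM in Dnmt3a KO and 6.88, 7.33 and 13.9 CPM in Dnmt3b KO, a log2 fold change of 3.29 ± 0.32 (edgeR, adjusted p = 0.00730). The Rhox4 copies are nearly identical, so how reads were shared among Rhox4e, Rhox4d and Rhox4f is uncertain. Gm4779 (chrX:101790053-101794423) was 0.648 to 1.52 CPM in Dnmt3a KO and 8.26, 8.15 and 14.6 CPM in Dnmt3b KO, with a log2 fold change of 3.15 ± 0.32 (edgeR, adjusted p = 0.00981). Its neighbour on the opposite strand, 8030474K03Rik, was 0.486 to 1.14 CPM against 5.73, 6.78 and 12.7 CPM, which fell just short of the call (log2 fold change 3.35, edgeR adjusted p = 0.0134). Both genes of this pair were therefore higher together in all 3 Dnmt3b KO embryos. Reg2, a secreted lectin of the Reg family, was low in all embryos, at 0.0700 to 0.118 CPM in Dnmt3a KO and 0.674, 0.824 and 0.927 CPM in Dnmt3b KO (log2 fold change 3.05 ± 0.26, edgeR adjusted p = 0.00309). Without the libraries labelled Dnmt3b KO 11 and 12, the log2 fold changes were 2.78 for Rhox4e, 2.77 for Gm4779, 2.74 for 8030474K03Rik and 2.72 for Reg2.

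The promoters of Sycp1, of Rhox4e and of the pair 8030474K03Rik and Gm4779 are shown because these genes carried the calls. With the CpG dinucleotides on which the enzymes act in capitals, they are given 5' to 3' for the 250 bases before the RefSeq start (GRCm38.p6, the assembly also called mm10), followed by that of Reg2, whose window holds few CpG. The windows are chr3:102936101-102936350 on the minus strand for Sycp1, chrX:37557162-37557411 on the plus strand for Rhox4e, chrX:101794406-101794655 on the plus strand for 8030474K03Rik and chr6:78404905-78405154 on the plus strand for Reg2. The start of Gm4779 faces that of 8030474K03Rik, and of the 300 bases from 250 before to 50 after each start the pair shares 290. The sequence printed under both names is the 250 bases before 8030474K03Rik. Those before Gm4779 are chrX:101794446-101794695 on the minus strand, so the first printed bases lie after the Gm4779 start.
Sycp1: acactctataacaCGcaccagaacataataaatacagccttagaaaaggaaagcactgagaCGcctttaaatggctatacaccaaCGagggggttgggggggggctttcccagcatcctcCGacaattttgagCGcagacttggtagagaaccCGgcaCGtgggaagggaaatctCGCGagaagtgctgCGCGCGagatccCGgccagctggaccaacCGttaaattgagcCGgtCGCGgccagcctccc
Rhox4e: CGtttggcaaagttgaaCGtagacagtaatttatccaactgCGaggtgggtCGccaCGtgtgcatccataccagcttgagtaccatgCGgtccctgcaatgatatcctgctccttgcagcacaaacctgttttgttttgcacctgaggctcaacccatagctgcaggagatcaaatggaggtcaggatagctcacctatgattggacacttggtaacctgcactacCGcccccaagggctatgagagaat
8030474K03Rik and Gm4779: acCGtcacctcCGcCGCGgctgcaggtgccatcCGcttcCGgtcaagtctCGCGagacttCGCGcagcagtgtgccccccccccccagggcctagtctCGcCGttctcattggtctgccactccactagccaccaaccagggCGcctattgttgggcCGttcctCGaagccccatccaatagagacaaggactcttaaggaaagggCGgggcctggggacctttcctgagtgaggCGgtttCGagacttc
Reg2: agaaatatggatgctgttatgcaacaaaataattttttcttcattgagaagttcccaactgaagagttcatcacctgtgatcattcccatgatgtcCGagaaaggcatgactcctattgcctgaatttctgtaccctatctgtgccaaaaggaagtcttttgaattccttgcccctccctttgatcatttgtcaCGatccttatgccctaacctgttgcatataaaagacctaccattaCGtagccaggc
The printed windows hold 17 CpG for Sycp1, 7 for Rhox4e, 18 for 8030474K03Rik and 3 for Reg2. The 250 bases before Gm4779 hold 15.

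Promoters of the genes higher in Dnmt3b KO were not especially rich in CpG. Of the 21 genes higher at an adjusted p under 0.05, 18 had a RefSeq window, with a median of 11.5 CpG in 300 bases, against 19 over the 13313 tested genes with a window and 7 over all 27025 genes in the table. The hexamer CACGTG, an E-box that reads the same on both strands, stood in 5 of the 18 windows (27.8%) and in 9.55% of those of tested genes. It also stood in 15 of the 41 windows (36.6%) of germline list genes whose groups did not overlap, and in 10 of the 60 (16.7%) of the other tested germline list genes. The heptamer TTCCCGC, the core bound by E2F proteins, on either strand, stood in 3 of the 18 (16.7%) and in 7.64% of the windows of tested genes. These matches describe letters and were not tested as binding sites.

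The remaining genes past an adjusted p of 0.05 were chosen for naming after their values were seen. Taf7l, a testis form of a general transcription factor subunit, was 0.381 to 0.635 CPM in Dnmt3a KO and 2.04, 2.14 and 2.60 CPM in Dnmt3b KO (log2 fold change 2.0, edgeR adjusted p = 0.0159). Mov10l1, the helicase that loads piRNA precursors, was 0.595 to 1.17 CPM against 3.48, 3.31 and 9.98 CPM (log2 fold change 2.67, edgeR adjusted p = 0.0425). In cardiomyocytes Mov10l1 was 17.9 to 25.9 CPM in Dnmt3a KO and 18.8 to 31.1 CPM in Dnmt3b KO, with overlap and a log2 fold change of 0.21. The whole-embryo sum includes these cells. Sycp2 and Syce1, further proteins of the synaptonemal complex, had log2 fold changes of 2.50 and 2.27. The testis tubulins Tuba3a and Tuba3b, near-identical copies whose reads are hard to tell apart, had 3.70 and 8.32. The value of Tuba3b rested most on 1 library, since it was 1.60, 4.98 and 40.4 CPM in Dnmt3b KO 1 and 2 summed, 11 and 12, against 0.0236 to 0.0899 CPM in Dnmt3a KO. Mtus2, which encodes a microtubule-associated protein, was 4.8 to 5.26 CPM against 12.3, 10.8 and 10.0 CPM (log2 fold change 1.11, edgeR adjusted p = 0.0159), the only one of these in which the library labelled Dnmt3b KO 12 was the lowest of the 3.

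A common order ran through these genes. In 20 of the 21, the library labelled Dnmt3b KO 12 was the highest of the Dnmt3b KO embryos, and in 14 of them Dnmt3b KO 1 and 2 summed was the lowest, which is the reverse of the order of Dnmt3a level among these 3 embryos. The library labelled Dnmt3b KO 12 was also the only female and the only one counted with Cell Ranger 5.0.0, so with 3 embryos these cannot be told apart. In 16 of the 21 Dnmt3a KO 1 was the lowest of the 4 Dnmt3a KO embryos. All 3 Dnmt3b KO embryos exceeded all 7 WT embryos for 20 of the 21 genes, whereas all 4 Dnmt3a KO embryos did so for 2, Tuba3a and Syce1. The 21 were picked for being higher in Dnmt3b KO than in Dnmt3a KO, so this contrast largely follows from the choice. The same shares over all genes were not computed. For several of them, Reg2, Rhox4e and Sycp2 included, 3 of the 4 Dnmt3a KO embryos exceeded all WT embryos. Only WT 2 of the WT embryos was male, so most knockout embryos differed from most WT embryos in sex as well.

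**Figure D2:**
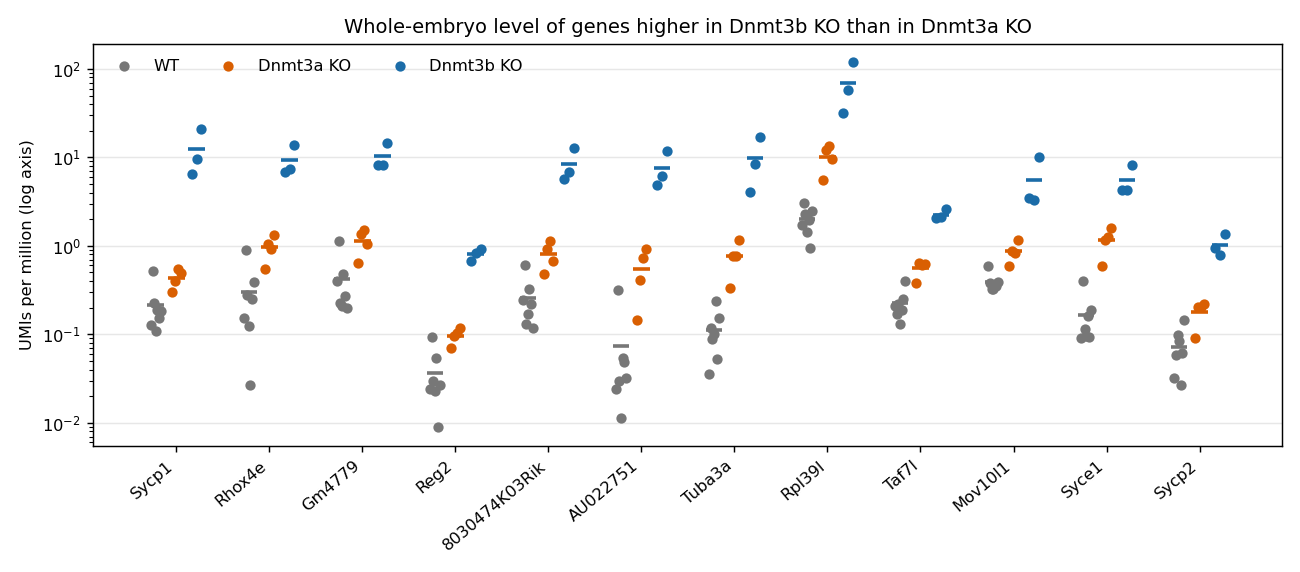
Whole-embryo level, in CPM on a log axis, of 12 genes in WT (grey, 7 embryos), Dnmt3a KO (orange, 4) and Dnmt3b KO (blue, 3), one point per embryo with the group mean as a bar. For Sycp1 the Dnmt3b KO embryos sit between 6.55 and 21.2 CPM, all above the Dnmt3a KO embryos, and the same separation holds for each gene drawn.

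The gene lists describe how far this reached. The 5 germline lists hold 153 genes, of which 151 were in the files and 125 passed the filter on low counts, while 26 did not and 6 had no UMI in any of the 8 libraries. Of the 125, 1 was called higher, Sycp1, and none lower by edgeR, while 74 were higher and none lower at an unadjusted p under 0.05, against 824 higher and 324 lower of all 18366 genes. All 3 Dnmt3b KO embryos lay above all 4 Dnmt3a KO embryos for 53 of the 125, or 42.4%, against 3.54% of all genes tested, and for none did they lie below, against 1.37%. The median log2 fold change was 0.94 over the 125 and -0.01 over all genes. Without the libraries labelled Dnmt3b KO 11 and 12, the median was 0.35, and the 1 remaining Dnmt3b KO embryo lay above all Dnmt3a KO embryos for 71 of the 125 (56.8%), against 20.1% of all genes. Members that passed the filter only through a high group had to differ, so these counts describe the list.

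Among meiotic chromosome genes, 15 of 36 tested members lay higher in Dnmt3b KO without overlap and none lower, against 3.54% and 1.37% of all genes tested, with a median log2 fold change of 0.74. Hormad1, which marks unpaired chromosome axes, was 0.709, 1.03, 2.74 and 1.99 CPM in Dnmt3a KO and 7.14, 9.65 and 20.2 CPM in Dnmt3b KO, a log2 fold change of 2.91 (edgeR, adjusted p = 0.0812). Its groups were well separated, yet it did not pass the test. Tex11, an X-linked meiotic gene, had a log2 fold change of 3.06 with an adjusted p of 0.0751 by edgeR.

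Of the piRNA pathway, 10 of 24 tested members did not overlap, all higher in Dnmt3b KO, against 3.54% of all genes tested, and the median log2 fold change was 0.54. Mael, a nuage protein needed for transposon silencing, was 0.0831 to 0.485 CPM in Dnmt3a KO and 1.65, 2.16 and 3.52 CPM in Dnmt3b KO (log2 fold change 3.12, edgeR adjusted p = 0.0646). Piwil2, the PIWI protein that binds piRNAs, was 0.424 to 0.666 CPM against 1.35, 1.45 and 3.30 CPM (log2 fold change 1.91, edgeR adjusted p = 0.0845). Ddx4, the germ cell RNA helicase, separated the groups by less, at 3.14 to 6.67 CPM against 7.10 to 15.5 CPM. These members lay below 0.26 CPM for Piwil2 and 0.13 CPM for Mael in every WT embryo, so that Dnmt3a KO lay between WT and Dnmt3b KO for Piwil2.

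Testis copies of housekeeping genes had the highest median of the 5 germline lists, 2.44, with 8 of 14 tested members higher without overlap, against 3.54% of all genes tested. Rpl39l, the testis copy of a ribosomal protein, was 5.6, 12, 13.6 and 9.70 CPM in Dnmt3a KO and 32.1, 57.9 and 119 CPM in Dnmt3b KO (log2 fold change 2.75, edgeR adjusted p = 0.0617). Its housekeeping counterpart Rpl39, with which it could share reads, overlapped between the groups, at 2199 to 4140 CPM in Dnmt3a KO and 2015 to 2996 CPM in Dnmt3b KO. Slc25a31, the germ cell form of the mitochondrial ADP/ATP carrier, was 3.35 to 7.12 CPM against 14.1, 20.7 and 42.3 CPM. Pdha2, a retrocopy of the pyruvate dehydrogenase subunit, spread widely among the Dnmt3b KO embryos, at 0.467, 1.12 and 9.35 CPM in Dnmt3b KO 1 and 2 summed, 11 and 12, against 0.0276 CPM or less in Dnmt3a KO.

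The other germline lists held X-linked families and germline regulators. Of 26 tested X-linked family members, 10 lay higher in Dnmt3b KO without overlap, against 3.54% of all genes tested, with a list median of 1.25. Rhox6 was 5.87 to 9.75 CPM in Dnmt3a KO and 15.5, 20.4 and 82.8 CPM in Dnmt3b KO, and Rhox9 was 1.08 to 1.65 CPM against 3.36, 6.57 and 42.4 CPM, both of them far highest in the female embryo Dnmt3b KO 12. Of 25 tested germline regulators, 10 lay higher without overlap, against the same share of all genes, with a median of 0.94, among them Brdt, a testis bromodomain protein, and Dppa5a, an RNA-binding protein of pluripotent and germ cells.

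Primordial germ cells could carry germline transcripts, so their markers were read beside these lists. Of 7 primordial germ cell markers, 6 were tested, with a median log2 fold change of 0.89. Dnd1, Nanos3, Ifitm3 and Dppa5a lay higher in Dnmt3b KO without overlap, 4 of the 6 against 3.54% of all genes, and Prdm1 and Dppa3 overlapped. Dppa3 was 0.255 to 1.06 CPM in Dnmt3a KO and 0.919, 0.983 and 1.39 CPM in Dnmt3b KO, and Prdm14 was too low to test. The 7 markers summed to 46.4 to 53.6 CPM in Dnmt3a KO, 63.4 to 103 CPM in Dnmt3b KO and 35.1 to 47.4 CPM in WT, so the sum was higher in every Dnmt3b KO embryo than in every Dnmt3a KO embryo. The part of germ cell number in the germline results was not tested. Markers of the extraembryonic endoderm summed to 3859 to 5786 CPM in Dnmt3a KO and 3982 to 4709 CPM in Dnmt3b KO.

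**Figure D3:**
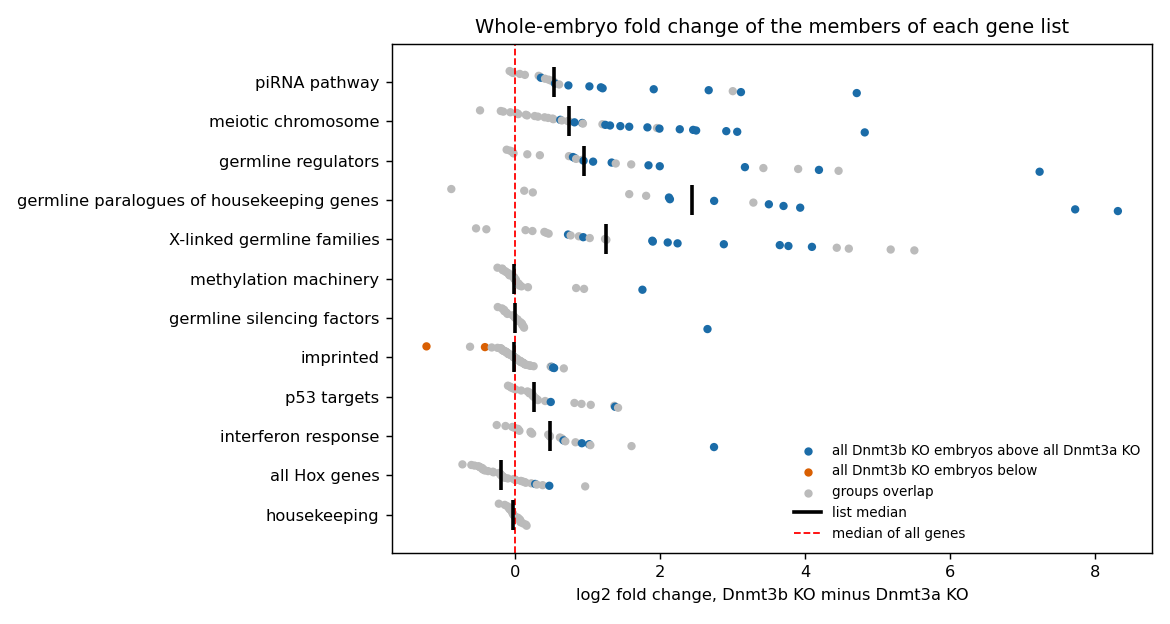
Whole-embryo log2 fold change, Dnmt3b KO minus Dnmt3a KO, of each tested member of 12 gene lists, one point per gene, coloured by whether the groups overlap, with the list median as a black bar and the median of all genes as a dashed line. The 5 germline lists at the top have medians from 0.54 to 2.44, and the housekeeping list at the bottom has -0.02.

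The remaining lists are read against the shares of all genes tested, 3.54% higher and 1.37% lower without overlap. The methylation machinery had 1 of 27 tested members higher without overlap, Dnmt3l, and a median log2 fold change of -0.01. The germline silencing factors, which include the E2F6 and PRC1.6 proteins that hold germline genes off, had a median of 0.00 and 1 member of 17 without overlap, Morc1, itself a germline gene. Of 61 tested imprinted genes, none was called by edgeR at any fold, 6 passed an unadjusted p under 0.05, and 3 lay higher and 2 lower without overlap, counts near those shares of all genes. Cdkn1c, an imprinted growth inhibitor, was 311 to 412 CPM in Dnmt3a KO and 448 to 560 CPM in Dnmt3b KO. Housekeeping genes had a median of -0.02 with no separated member.

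The genes the study named for primed pluripotency had a median log2 fold change of 0.96, with all 5 above 0, 3 at an unadjusted p under 0.05, 2 without overlap and none called by edgeR. Utf1 was 0.977 to 1.25 CPM in Dnmt3a KO and 1.45, 2.09 and 2.85 CPM in Dnmt3b KO, and Fgf5, a growth factor of the epiblast, was 0.222 to 0.284 CPM against 0.427 to 0.915 CPM. Pou5f1, the pluripotency factor OCT4, overlapped, at 0.585 to 3.07 CPM against 2.22, 5.36 and 13.9 CPM, as did Slc7a3 and Pim2, with log2 fold changes of 0.34 and 0.16. WT embryos covered 0.710 to 27.9 CPM for Pou5f1, a range wider than both knockout groups. The 4 posterior Hox genes had a median of -0.38, and Hoxa9, Hoxb9, Hoxc8 and Hoxc9 had log2 fold changes of -0.51, -0.46, -0.31 and -0.22, each with overlapping groups. The 6 extraembryonic genes named by the study, Rhox5, Krt8, Apoe, Ascl2, Trap1a and Xlr3a, overlapped as well, with log2 fold changes from -0.04 to 0.77. The study named these 3 lists from its Dnmt1 KO embryos, which are not compared here.

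Gm14226 and Ahcy were lower in Dnmt3b KO and lie close to the mutated gene. Gm14226, a gene model of unassigned function (chr2:155018266-155027104, 1369 kb from the start of Dnmt3b), was 6.44, 10.6, 5.24 and 8.17 CPM in Dnmt3a KO and 0.0516, 0.0648 and 0.0791 CPM in Dnmt3b KO, a log2 fold change of -6.89 ± 0.34 (edgeR, adjusted p = 6.59e-05). All Dnmt3b KO embryos, the libraries labelled Dnmt3b KO 11 and 12 included, were thus nearly without it, whereas WT embryos held 8.65 to 16.5 CPM. Ahcy, the enzyme that hydrolyses S-adenosylhomocysteine, the product that methyltransferases leave behind, lies 1410 kb from that start. It was 19.95, 13.99, 14.4 and 15.8 CPM in Dnmt3a KO and 7.44, 6.78 and 8.06 CPM in Dnmt3b KO (log2 fold change -1.12 ± 0.15, edgeR adjusted p = 0.0289), so it passed an adjusted p of 0.05 but was not called. WT embryos held 17.7 to 24.8 CPM of Ahcy. Without the libraries labelled Dnmt3b KO 11 and 12, the log2 fold change was -7.26 for Gm14226 and -1.19 for Ahcy.

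Within 5 Mb of Dnmt3b, 161 genes were tested, of which 1 was called, Gm14226, and 11 lay higher and 9 lower in Dnmt3b KO without overlap, against 3.54% and 1.37% of all genes, with a median log2 fold change of 0.01. Within 5 Mb of Dnmt3a, 40 genes were tested, none was called by edgeR, and none lay higher and 3 lay lower in Dnmt3b KO without overlap, with a median of 0.02. Whether Gm14226 and Ahcy differ through the loss of the enzyme or through sequence that travels with the mutated allele cannot be told apart, since every Dnmt3b KO embryo carries both.

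**Figure D4:**
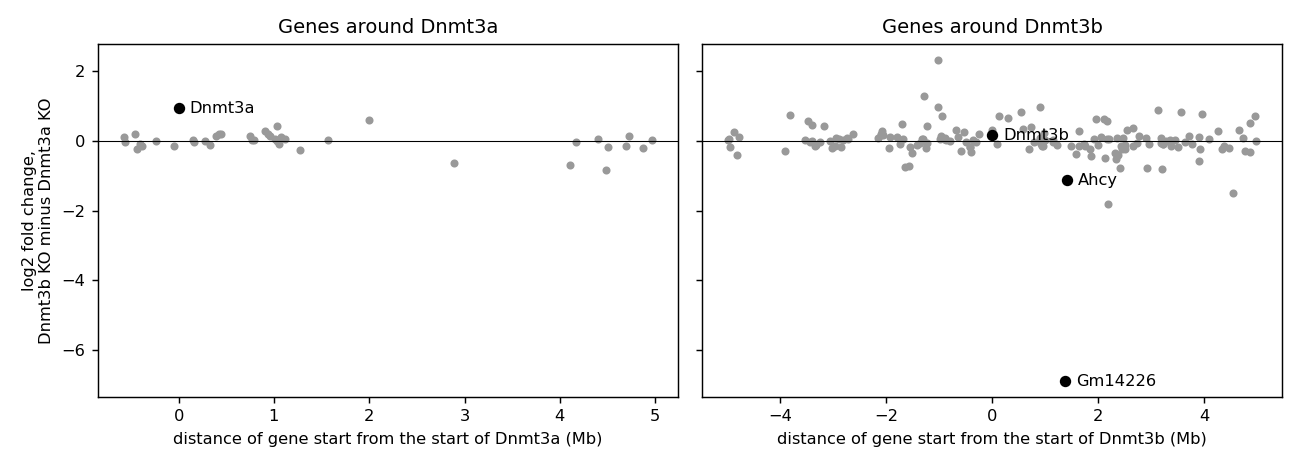
Whole-embryo log2 fold change, Dnmt3b KO minus Dnmt3a KO, of genes within 5 Mb of the start of Dnmt3a (left) and Dnmt3b (right), plotted against the distance of the gene's start in Mb, one point per gene. Gm14226 at -6.89 and Ahcy at -1.12 stand below the other named points.

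The difference was then followed through cell classes, made by clustering cells on variable genes and naming the clusters by marker genes. The clustering left out 626 genes, among them those past an adjusted p of 0.05. Cells left unnamed, 17.7% to 28.5% of each embryo compared, entered no class fit. Of 46 clusters, 33 were named, giving 18 classes, and 16 classes had at least 25 cells in enough embryos to be fitted on UMIs summed per embryo and class, whereas immune and neural crest cells had too few. Over the 16 classes, 104 of 187814 pairs of gene and class were called higher in Dnmt3b KO (0.0554%) and 6 lower (0.00319%). The 104 came from 30 genes, of which 16 were in the germline lists, and the 6 came from Gm14226 and Ahcy. Forebrain and midbrain and hindbrain and spinal cord had 15 higher calls each, presomitic mesoderm 14, surface ectoderm 13 and somitic mesoderm 10. Erythroid cells, extraembryonic endoderm and notochord had none by edgeR. There 513 of 11884, 468 of 13584 and 356 of 8314 tested genes respectively passed an unadjusted p under 0.05. These counts are no larger than that threshold alone would give, as was also so in endothelium, with 4 higher calls and 327 of 11976. Single genes passed an adjusted p of 0.05 in classes without a call. Gm4779 had a log2 fold change of 3.24 in erythroid cells (edgeR, adjusted p = 0.0182). In notochord 8030474K03Rik had 4.12 (edgeR, adjusted p = 0.0299). Among the erythroid cells drawn for clustering, 1 cluster held 46.0% of the Dnmt3a KO cells and 11.5% of the Dnmt3b KO cells. Another, all from the library labelled Dnmt3b KO 12, held 13.5% of the Dnmt3b KO cells drawn. Without the libraries labelled Dnmt3b KO 11 and 12, 15 pairs were called higher and 2 lower.

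Germline list genes were then counted class by class. Of 933 pairs of germline gene and class tested, all Dnmt3b KO embryos lay above all Dnmt3a KO embryos in 394, or 42.2%, against 2.59% of all pairs, and below in 4, against 2.35%. The list median was positive in all 16 classes, from 0.43 in extraembryonic endoderm to 1.77 in hindbrain and spinal cord. Pairs that passed the low-count filter only through a high group had to differ here too, so these counts and medians describe the list. Free RNA can give UMIs in cells that do not express a gene, so a count in a class does not show expression there. Mbl2, a secreted lectin, was 61.8 to 100.4 CPM in extraembryonic endoderm over both knockouts, yet was called higher in forebrain and midbrain, at 0.214 to 0.432 CPM in Dnmt3a KO and 3.57, 4.6 and 6.39 CPM in Dnmt3b KO, and in surface ectoderm. The part of free RNA in the class results was not tested.

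The genes called in most classes were 8030474K03Rik in 11, Sycp1 and AU022751 in 10 each, Gm4779 in 9, and Rpl39l and Tuba3a in 7 each. Sycp1 did not overlap between the groups in any of the 15 classes tested, and in notochord, where it was too low to test, the groups overlapped, and its log2 fold change ran from 1.49 in extraembryonic endoderm to 6.84 in neuromesodermal progenitors (NMP), the tail-end cells that give both spinal cord and somites. In NMP, Sycp1 was 0, 0, 0.168 and 0 CPM in Dnmt3a KO 1, 2, 13 and 14 and 3.78, 4.91 and 9.88 CPM in Dnmt3b KO. In forebrain and midbrain it was 0.0691, 0.214, 0.144 and 0.124 CPM in Dnmt3a KO and 6.02, 6.67 and 12.6 CPM in Dnmt3b KO, a log2 fold change of 5.97 ± 0.45 (edgeR, adjusted p = 0.000195). Extraembryonic endoderm stood out by the small gap, with 1.12 to 2.51 CPM in Dnmt3a KO, 3.91, 4.12 and 4.8 CPM in Dnmt3b KO and 0.489 to 2.64 CPM in WT, and the difference was not called there (edgeR, adjusted p = 0.519).

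8030474K03Rik behaved alike, with log2 fold changes from 1.33 in extraembryonic endoderm to 5.03 in forebrain and midbrain, and separated the groups in all 16 classes. AU022751, an X-linked gene model, ran from 1.56 to 6.03 and separated them in all 16 as well. Of the extraembryonic endoderm cells drawn for clustering, up to 1500 cells of all classes per library, 66.3% in Dnmt3a KO and 47.1% in Dnmt3b KO fell in 1 of its 2 clusters. The cells of that cluster had a median UMI count 0.307 times that of their own samples, against 1.96 times in the other. Dnmt3a KO 2 alone gave 32.7% of all cells of the shallow cluster, so the Dnmt3a KO share rests largely on that library. The part of cell depth in the result was not tested.

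Gm14226 was highest in the classes named presomitic mesoderm, cranial mesenchyme and allantois in the Dnmt3a KO embryos. In presomitic mesoderm it was 66.9, 122, 46.1 and 58.3 CPM in Dnmt3a KO 1, 2, 13 and 14 and 0.196, 0.268 and 1.14 CPM in Dnmt3b KO (edgeR, adjusted p = 8.85e-05), and in cranial mesenchyme it was 25.3 to 74.6 CPM against 0.187 CPM or less. In somitic mesoderm no UMI of it was read in any Dnmt3b KO embryo. It was lower in every Dnmt3b KO embryo than in every Dnmt3a KO embryo in all 11 classes tested. Ahcy was lower without overlap in all 16 classes, with log2 fold changes from -1.41 to -0.81, and was called in presomitic mesoderm alone. The class named cranial mesenchyme is uncertain. Its leading genes held Alx1, Prrx1 and Twist1 but also Lhx1 and Osr1, markers of intermediate mesoderm, which scored 1.04 against 1.63. The largest cluster of the allantois class was led by Cdx4 and Osr1.

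Dnmt3a itself was not called in any of the 16 classes by edgeR. Its log2 fold change was positive in all of them, from 0.36 in pharyngeal mesoderm to 1.69 in extraembryonic endoderm, yet the groups overlapped in every class.

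**Figure D5:**
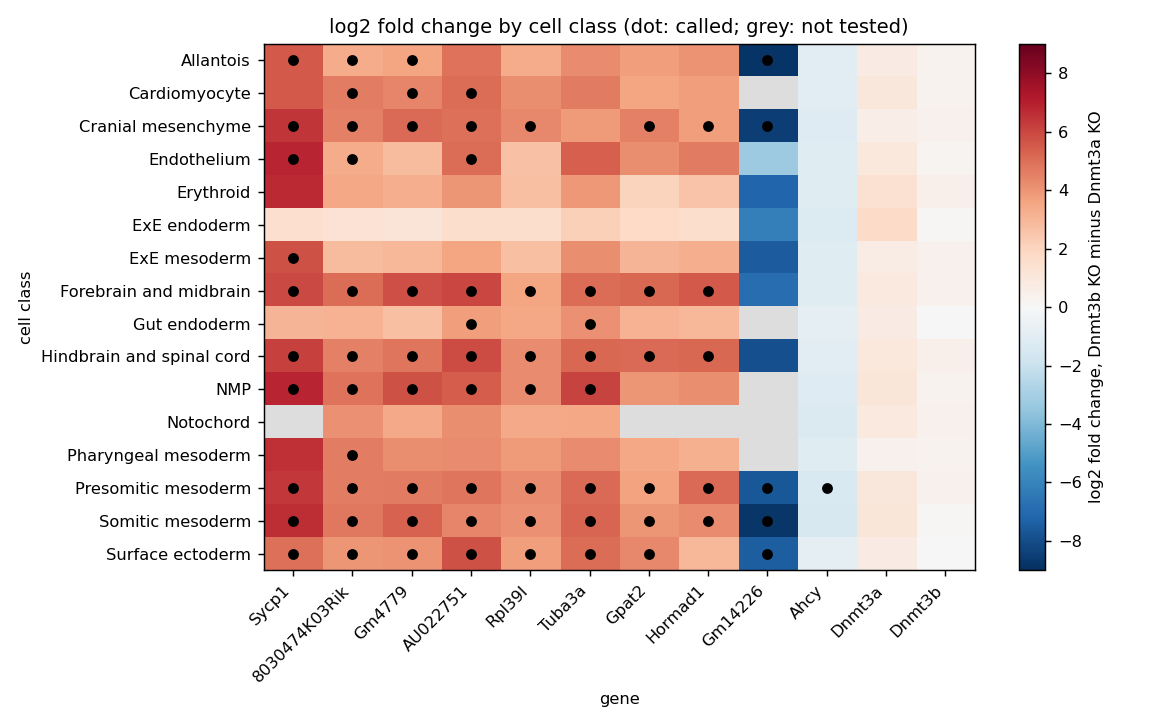
Log2 fold change, Dnmt3b KO minus Dnmt3a KO, of 12 genes (columns) in 16 cell classes (rows), in colour, red where higher in Dnmt3b KO and blue where lower, with a dot where the pair was called. The first 8 columns, from Sycp1 to Hormad1, are red in every class tested and palest in extraembryonic endoderm, Gm14226 and Ahcy are blue, and Dnmt3a and Dnmt3b carry no dot.

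Cell class shares gave little separation. NMP were 2.16%, 2.78%, 2.36% and 2.84% of cells in Dnmt3a KO 1, 2, 13 and 14 and 2.85%, 5.19% and 4.71% in Dnmt3b KO, the only one of 19 groups of cells, the unnamed cells included, in which the knockouts did not overlap, and there by a margin of only 2.84% to 2.85%. The exact two-sided permutation test gave p = 0.0571, the smallest that 3 against 4 embryos allow, and 0.543 after adjustment over the 19. Gut endoderm was 3.64% to 4.95% of cells in Dnmt3a KO and 4.70% to 9.18% in Dnmt3b KO, and cardiomyocytes were 0.796% to 2.18% against 2.0% to 3.17%, both with overlap and adjusted exact permutation p = 0.543. Neural crest was 0.751% to 3.68% against 0.337% to 1.89%. Without Dnmt3a KO 2, in which 38.6% of cells were of the ExE endoderm class, 4 of the 19 groups of cells did not overlap. With fewer embryos, groups separate more readily by chance. The ExE endoderm markers of Dnmt3a KO 2 summed to 5698 CPM, against 5786 CPM in Dnmt3a KO 1, so its RNA did not stand out as its cell share did.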

How the data were processed

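Single-cell transcriptomes of single E8.5 embryos were deposited as one matrix per library. The values are counts: the authors assigned reads to mm10 genes with Cell Ranger, collapsed them by UMI and deposited raw UMI counts of called cells. Headers of the deposited matrices name Cell Ranger 3.1.0 in 17 cases and 5.0.0 for Dnmt3b KO 12, and human genes were dropped where a combined reference had been used. UMIs of kept barcodes were summed per embryo, with no pseudocount, and CPM are UMIs per 1000000. Genes were filtered with filterByExpr, normalised with TMM and fitted with edgeR 4.0.16 (quasi-likelihood, Benjamini-Hochberg adjusted p over all genes tested) in R 4.3.3, with DESeq2 1.42.0 as an alternative. The fit was tested on simulated data. Coordinates are from GENCODE vM21. Cell classes came from Leiden clustering of 22381 cells on variable genes, doublets being left in unless stated. Marker genes named the clusters, and a named cluster needed a marker score of 0.7 and 3 detected markers. Groups came from the titles. The libraries, gene lists and tests were chosen with earlier results of these data known. Genes named were the methylation enzymes, up to 12 called genes per direction with at least 2 CPM and no overlap, the 6 called in most classes, 3 called members per list and direction with all members of lists of up to 6, and 4 called genes near each target. Other genes named were chosen after their values were seen. The Dnmt1 KO libraries were not analysed here except in one alternative fit.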

Additional observations from a re-analysis of the deposited data

Results flagged for a closer look

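Among the 4 Dnmt3a KO embryos, 50 measures were examined for a sample far from the other 3 (by Dixon's rule, the gap to the nearest value over the range), and 5 were. Chance marks about 1 group in 20. Dnmt3a KO 1 was low for Taf7l, at 0.381 CPM, and for Sycp2, at 0.0919 CPM, and high for Gm49227, at 0.0219 CPM, a level of few UMIs. Dnmt3a KO 2 was low for the share of allantois cells, at 3.77%, and of cranial mesenchyme cells, at 0.820%, and was also the embryo with 38.6% extraembryonic endoderm cells. The 3 Dnmt3b KO embryos were too few for this rule.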

How the results depend on the processing

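The 5 calls rested on few embryos. The count of genes called higher was 4, and it was 91 with DESeq2, 38 with all 4 groups in the fit, 21 at an adjusted p under 0.05 with any fold (a rule added after seeing the data), 10 with Dnmt3b KO 11 and 12 only, 9 with no low-count filter, 8 with Dnmt3b KO 1 and 2 separate, 2 with Dnmt3b KO 2 alone, 1 with a mean of 1 CPM required, and 0 with the reference as a covariate or without the libraries labelled Dnmt3b KO 11 and 12, where the lone embryo is assumed to vary like the others. Leaving out one library gave 0 to 4 higher calls, 0 without any one Dnmt3a KO embryo or without Dnmt3b KO 11, and leaving out Dnmt3b KO 1 and 2 together gave 10. Lower calls were 1, against 4 with DESeq2, 2 with all 4 groups or at an adjusted p under 0.05, and 0 without the libraries labelled Dnmt3b KO 11 and 12, and calls near Dnmt3b were 3, 2 and 0 under the first, second and last of these. Germline list members called higher were 1, against 30 with DESeq2, 18 with all 4 groups, 2 with no filter or with Dnmt3b KO 1 and 2 separate, 3 with a Y-linked covariate, 4 with Dnmt3b KO 11 and 12 only, 0 with the reference covariate or without the libraries labelled Dnmt3b KO 11 and 12, 0 to 2 leaving one library out and 4 without Dnmt3b KO 1 and 2. Their median log2 fold change, 0.94, was 1.24 with a mean of 1 CPM required, 0.55 with the Y-linked covariate, 0.35 without the libraries labelled Dnmt3b KO 11 and 12 0.55 to 1.00 leaving one library out, lowest without Dnmt3b KO 12, and 1.11 without Dnmt3b KO 1 and 2. It stayed positive in all 22 alternatives, of which the fit with Dnmt3b KO 11 and 12 only and that without Dnmt3b KO 1 and 2 are the same fit. Replicate numbers 1 and 2 occur in both groups, but nothing in the labels ties equal numbers, and the deviations of same-numbered libraries correlated at -0.28 and -0.07. With the replicate block, which leaves few degrees of freedom, no gene was called (0 higher, 0 lower, 0 near Dnmt3b, 0 germline members), the germline median was 0.57 and Dnmt3b changed sign to -0.053. By class, the 104 higher and 6 lower pairs became 408 and 36 with DESeq2, 948 and 95 with no filter, 35 and 4 with the reference covariate, 15 and 2 without the libraries labelled Dnmt3b KO 11 and 12, 37 to 86 and 3 to 7 leaving one library out (37, 45, 46 and 59 higher without Dnmt3b KO 11, Dnmt3a KO 14, 1 and 13), and 269 and 7 without Dnmt3b KO 1 and 2. Classes whose shares did not overlap were 1, against 0 with Dnmt3b KO 1 and 2 separate, 4 without the libraries labelled Dnmt3b KO 11 and 12, 1 to 4 leaving one library out and 2 without Dnmt3b KO 1 and 2. Values near 0 changed sign: Dnmt3b was -0.022 without the libraries labelled Dnmt3b KO 11 and 12, Dnmt1 was -0.066 without Dnmt3b KO 1 and 2, and Uhrf1 was -0.016 with the reference covariate, -0.058 with the Y-linked covariate, -0.042 without the libraries labelled Dnmt3b KO 11 and 12, and -0.058 to 0.064 leaving one library out (-0.0083 without Dnmt3a KO 13, -0.029 without Dnmt3a KO 1). The causes were not tested.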

Other observations

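Cardiomyocyte markers had a whole-embryo median log2 fold change of 0.85 over 9 genes, 3 of them higher without overlap, against 3.54% of all genes tested, and none called by edgeR. They summed to 683 to 1222 CPM in Dnmt3a KO and 1204 to 1781 CPM in Dnmt3b KO, with overlap. Cardiomyocytes were on average 1.37% of cells in Dnmt3a KO and 2.68% in Dnmt3b KO, and neural crest cells 2.48% and 1.19%. Cell share and level per cell cannot be told apart in the sums of either marker list. Neural crest markers had a median of -0.67 over 8 genes, with sums of 49.0 to 101 CPM against 35.8 to 56.9 CPM, and none was called. Of 24 tested interferon response genes, 4 lay higher without overlap, against the same share of all genes, the largest being Ifi27, at 0.0438 to 0.124 CPM in Dnmt3a KO and 0.364, 0.427 and 0.808 CPM in Dnmt3b KO (log2 fold change 2.74, edgeR adjusted p = 0.0613). Of 24 tested p53 targets, 2 lay higher without overlap, against 3.54% of all genes tested, with a list median log2 fold change of 0.26 and none called by edgeR. One of the 2, Phlda3, was 12.3 to 18.6 CPM in Dnmt3a KO and 20.2, 21.8 and 70.9 CPM in Dnmt3b KO, highest in the library labelled Dnmt3b KO 12 (log2 fold change 1.38, edgeR adjusted p = 0.396). Clustered protocadherins had a median of -0.29 over 22 genes, and 1 of them lay higher without overlap, near the share of all genes.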
